A study of Mus musculus with 8 samples.

Results

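The genes described are 43 genes of ferroptosis and antioxidant defence, a list of gene symbols covering glutathione synthesis, the GPX4-independent suppressors, iron handling, the enzymes that make lipids prone to peroxidation, the NRF2 pathway, and the peroxide-removing enzymes. They were measured on 8 Affymetrix arrays of memory CD4 T cells. A gene was read through probe sets annotated to its symbol alone, and through the brightest of these where it had several. Such a probe set existed for 38 of the 43 genes, against 18193 genes in the whole table. Of these, 32 were bright enough to be tested, among 11217 genes tested in all. A further 6 (Slc7a11, Aifm2, Slc40a1, Hmox1, Alox15 and Nqo1) lay below the brightness filter, and Ftl1 and Prdx1 were covered only by probe sets shared with other symbols. Por, Prdx5 and Prdx6 were not analysed here.

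All cells were polyclonal memory CD4 T cells from mouse spleen, sorted on day 60 after infection with LCMV Armstrong, a virus strain that mice clear as an acute infection. The 4 groups were T follicular helper (Tfh) cells and T helper 1 (Th1) cells, each from Rictor-null (Rictor-/-) and from wild-type (WT) mice, with 2 biological replicates per group. Tfh cells help B cells make antibody, and Th1 cells make interferon gamma. RICTOR is a core subunit of mTOR complex 2, which phosphorylates AKT, and the comparison of genotypes asks what its absence does to memory Tfh and Th1 cells. The RNA on an array was a pool of 10 or more mice, so the spread between replicates is one between pools. The sources used here do not give the sort gates, the Cre driver or other means of deletion, the deleted part of Rictor, or the sex and age of the mice.

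Ferroptosis is an iron-dependent cell death in which peroxides build up in membrane phospholipids. The selenoenzyme GPX4 reduces these peroxides with glutathione, whose cysteine enters the cell as cystine through the SLC7A11-SLC3A2 exchanger. Parallel suppressors make radical-trapping metabolites, labile iron and polyunsaturated phospholipids feed the reaction, and the transcription factor NRF2 (Nfe2l2), held down by KEAP1, drives many of the defence genes. In T cells, GPX4 is known to be needed for the survival of antigen-stimulated cells.

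Promoter sequences of member genes are shown first because several of these genes are classical targets of one factor, and because the 3 genes that were higher in Rictor-null cells of both lineages (Cybb, Prdx4 and Slc3a2) can be set beside them. RefSeq (GRCm38.p6) gave windows for 34 member genes. RefSeq gave 1 window for each of these 3, before the start of a transcript that the table does not name. That start lay 18442 bases inside the outermost annotated start of Cybb, 3812 inside that of Prdx4 and 9472 inside that of Slc3a2, so other starts of these genes are not covered. The 250 bases before it, at chrX:9469325-9469574 for Cybb, chrX:155338461-155338710 for Prdx4 and chr19:8713898-8714147 for Slc3a2, all on the minus strand, read as follows, with capitals marking interferon regulatory factor type matches on either strand, in which GAAA comes again after any 2 bases.

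Cybb: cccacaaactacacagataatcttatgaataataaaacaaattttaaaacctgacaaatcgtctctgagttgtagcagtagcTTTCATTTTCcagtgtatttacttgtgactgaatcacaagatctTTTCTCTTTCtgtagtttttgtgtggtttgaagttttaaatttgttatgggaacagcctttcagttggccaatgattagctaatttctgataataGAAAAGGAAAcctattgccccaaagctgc

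Prdx4: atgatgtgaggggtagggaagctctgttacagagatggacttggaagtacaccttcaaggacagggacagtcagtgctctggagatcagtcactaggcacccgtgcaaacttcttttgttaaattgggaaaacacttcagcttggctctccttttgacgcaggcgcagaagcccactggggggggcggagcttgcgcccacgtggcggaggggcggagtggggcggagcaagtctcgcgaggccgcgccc

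Slc3a2: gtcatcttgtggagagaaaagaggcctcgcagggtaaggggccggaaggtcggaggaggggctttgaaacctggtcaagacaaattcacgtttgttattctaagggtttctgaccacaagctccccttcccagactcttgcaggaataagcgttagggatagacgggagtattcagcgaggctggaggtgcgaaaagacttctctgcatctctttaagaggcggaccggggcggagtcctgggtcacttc

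Cybb held 3 such matches, 168, 124 and 29 bases before that start, and Prdx4 and Slc3a2 held none. Windows of 300 bases with the motif made up 3.44% of the 32851 windows of all genes, and Ncoa4 was the other member with one. This motif was added after the Cybb values were seen. Matches to the core of the antioxidant response element that NRF2 binds, TGACNNNGC on either strand, were found in 6 member genes and in 12.4% of all windows. They lay in windows of Gclm, Ncoa4, Nfe2l2, Prdx1, Sod1 and Txnrd1, and in those of 0 of the 8 members that differed between genotypes. Stretches of 40 bases around the match, in capitals, are given for 5 of them, at chr2:75704874-75704913 (minus strand) for Nfe2l2 and on the plus strand at chr3:122245408-122245447 for Gclm, chr10:82859099-82859138 for Txnrd1, chr14:32165730-32165769 for Ncoa4 and chr16:90220691-90220730 for Sod1. The Nfe2l2 and Sod1 windows precede the outermost start of the gene, and those of Txnrd1 and Ncoa4 precede starts 25255 and 5910 bases inside it.

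Nfe2l2: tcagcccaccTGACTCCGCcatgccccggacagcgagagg

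Gclm: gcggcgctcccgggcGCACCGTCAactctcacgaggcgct

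Txnrd1: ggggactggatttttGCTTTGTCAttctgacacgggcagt

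Ncoa4: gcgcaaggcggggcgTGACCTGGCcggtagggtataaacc

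Sod1: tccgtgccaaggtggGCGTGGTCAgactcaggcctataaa

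The Slc7a11 window, whose start lay 55474 bases inside the outermost one, held, at chr3:50443646-50443685 on the minus strand, 2 matches to TGATGNAA, the composite type of site that ATF4 binds in amino acid response genes, which 3.97% of all windows held.

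Slc7a11: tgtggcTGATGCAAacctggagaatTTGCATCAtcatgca

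The forkhead letters GTAAACA, bound by FOXO factors that AKT restrains, lay in the windows of Slc7a11 and Steap3 and in 3.65% of all windows. These matches overlapped no match to the other motifs. A match describes letters only.

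The CD4 T cell marker list was above the array median on all 8 arrays for 6 of 6 genes with a probe set. The summed signal of 8 Tfh markers was 3192 and 3458 on Rictor-null Tfh arrays, 1805 and 1810 on WT Tfh arrays, 1850 to 1866 on Rictor-null Th1 arrays and 1271 to 1336 on WT Th1 arrays, so it was higher in the Tfh arrays of each genotype, and the Rictor-null Th1 arrays lay above the WT Tfh arrays. Between WT lineages 6 of the 8 passed as higher in Tfh cells and 1 as lower. The sum of 7 Th1 markers overlapped between WT Tfh (4516 to 4566) and WT Th1 arrays (4564 to 4665). On Rictor-null arrays it was 4774.5 to 4881 in Tfh and 5410 to 5477 in Th1 cells. Of these 7, 1 passed between WT lineages, as higher in Tfh cells. Rictor itself differed by 0.02 ± 0.074 (SE) on the log2(signal + 32) scale between genotypes in Tfh cells and by -0.07 ± 0.074 in Th1 cells, and since the position of its probe set against the deletion is not given, it does not check the labels. WT Th1 replicate 1 and Rictor-null Tfh replicate 2 had the lowest scores on the third principal component (-6.49 and -12.38, against -0.60 to 6.48 on the other arrays). They are called below the arrays that stood apart. WT Th1 replicate 1 did so weakly, since Rictor-null Th1 replicate 2 (6.48) lay about as far out on the other side. The members called between genotypes are given with and without both arrays.

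Between genotypes, 7 members were higher and 0 lower in Rictor-null Tfh cells (limma, Benjamini-Hochberg adjusted p under 0.05 over all genes; 9 had an unadjusted p under 0.05). They were Cybb, Gch1, Mboat1, Prdx2, Prdx4, Slc3a2 and Sod2. That is 21.9% of the 32 members tested, where 13.6% of all genes tested passed the same test, 11.3% as higher and 2.31% as lower. In Rictor-null Th1 cells 3 members were higher (Cybb, Prdx4 and Slc3a2) and 1 was lower (Gpx1), with 10.5% of all genes passing, 7.55% as higher and 2.97% as lower, so the members' share was close to that of all genes. These 3 were therefore higher in both lineages, as were 4.46% of all genes (500 genes). Averaged over both lineages, 5 members were higher (Cybb, Prdx2, Prdx4, Slc3a2 and Sod2) and 1 lower (Gpx1), where 17.1% of all genes passed, 13.1% as higher and 3.93% as lower. The median difference over the tested members was 0.05 in Tfh cells and 0.02 in Th1 cells, against 0.04 and 0.00 over all genes. In Tfh cells the arrays of the genotypes did not overlap for 19 members, where 59.6% of all genes showed the same, and in Th1 cells for 16, where 56% did. In arrays of sorted populations, a higher share of cells that express a gene and more of its RNA per cell cannot be told apart.

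**Figure D1:**
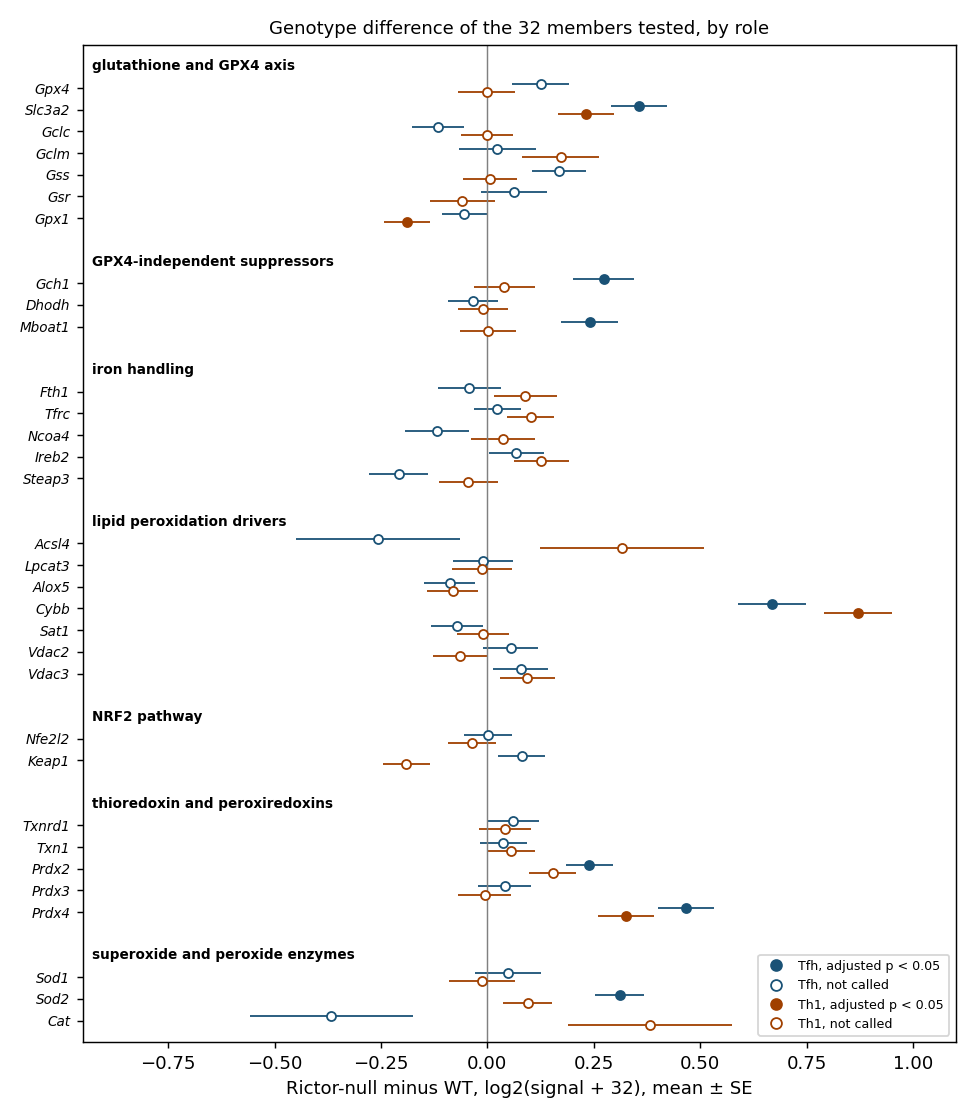
Difference between Rictor-null and WT cells for the 32 members tested, grouped by role, on the log2(signal + 32) scale (x axis), in Tfh cells (blue) and Th1 cells (orange); points are fitted means, bars are SE (2 arrays per group), and filled points passed an adjusted p of 0.05. Cybb lies farthest to the right in both lineages, at 0.67 and 0.87, and the wide bars of Acsl4 and Cat have an SE of 0.192.

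The balance of these calls depends on the scaling of the arrays. Of all genes called, 83.0% were higher in Rictor-null Tfh cells as deposited, 63.1% after quantile normalization and 41.1% after median centring; in Th1 cells the shares were 71.8%, 55.4% and 53.5%. Among members, quantile normalization gave 5 higher and 1 lower in Tfh cells and median centring gave 4 higher and 2 lower, in which Steap3 was lower under both and Gclc under median centring. Under both scalings 2 members were higher (Cybb and Prdx4) and 2 lower (Gpx1 and Keap1) in Th1 cells. With single arrays left out the members called changed, and in both lineages the number of all genes called moved the same way. Each such fit leaves 1 array in a group. Leaving out WT Tfh replicate 2 left Cybb and Prdx4 called in Tfh cells, and leaving out WT Tfh replicate 1 left these and Sod2. Leaving out Rictor-null Tfh replicate 2 left Slc3a2 as well. Leaving out Rictor-null Tfh replicate 1 added Gss as higher, and Acsl4, Cat, Ncoa4 and Steap3 as lower. In Th1 cells Cybb alone was called without WT Th1 replicate 2 or without Rictor-null Th1 replicate 1. Cybb and Prdx4 were called without WT Th1 replicate 1 or either WT Tfh array, and Cybb and Gclm without Rictor-null Th1 replicate 2. Leaving out either Rictor-null Tfh array added Cat as higher and Keap1 as lower. Without both arrays that stood apart, Cybb, Prdx2, Prdx4, Slc3a2 and Sod2 were called in Tfh cells. Cybb, Prdx4 and Slc3a2 were called in Th1 cells, and all were higher.

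Cybb, which encodes the catalytic subunit of the phagocyte NADPH oxidase (NOX2), an enzyme that makes superoxide, had the largest rise of the 32 members tested, in each lineage. Its signal was 91.2 and 86.3 on the WT Tfh arrays, 157 and 162 on the Rictor-null Tfh arrays, 80.6 and 80.8 on the WT Th1 arrays and 194 and 156 on the Rictor-null Th1 arrays. Every Rictor-null array lay above every WT array. The difference was 0.67 ± 0.080 in Tfh cells (1.59-fold, limma adjusted p = 0.000367) and 0.87 ± 0.080 in Th1 cells (1.83-fold, adjusted p = 4.78e-05). The genotype effect in the lineages differed by -0.20, which did not pass (limma adjusted p = 0.350). The 2 other Cybb probe sets gave the same direction. The second brightest read 43.4 and 51.8 against 81.3 and 80.3 in Tfh cells and 48.9 and 49.4 against 112 and 94.0 in Th1 cells, with differences of 0.50 and 0.73. The dimmest was below the array median on all arrays and read 13.3 to 18.2 on WT and 21.8 to 24.3 on Rictor-null arrays. The Cybb calls in Tfh and Th1 cells held under each alternative scaling, filter, pseudocount and model tried and with each array left out in turn; the dimmest probe set alone did not pass (0.16 and 0.23).

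The partner subunits of the oxidase did not all move with Cybb. Among all genes tested, 11.3% were higher in Rictor-null Tfh and 7.55% in Rictor-null Th1 cells. Of 6 tested genes of the NADPH oxidase list, 1 was higher in each lineage. This was Ncf1, the cytosolic organizer subunit p47phox, with signals of 67.1 and 59.6 on WT Tfh arrays, 105 and 104 on Rictor-null Tfh arrays, 72.9 and 55.4 on WT Th1 arrays and 119 and 103 on Rictor-null Th1 arrays. Its arrays did not overlap between genotypes, and it rose by 0.52 ± 0.089 in Tfh and 0.58 ± 0.089 in Th1 cells (limma adjusted p = 0.00352 and 0.00165). Cyba, which encodes the membrane partner p22phox, differed by 0.03 and -0.11, and Ncf4, which encodes p40phox, by -0.01 and 0.06. Neither passed the test.

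**Figure D2:**
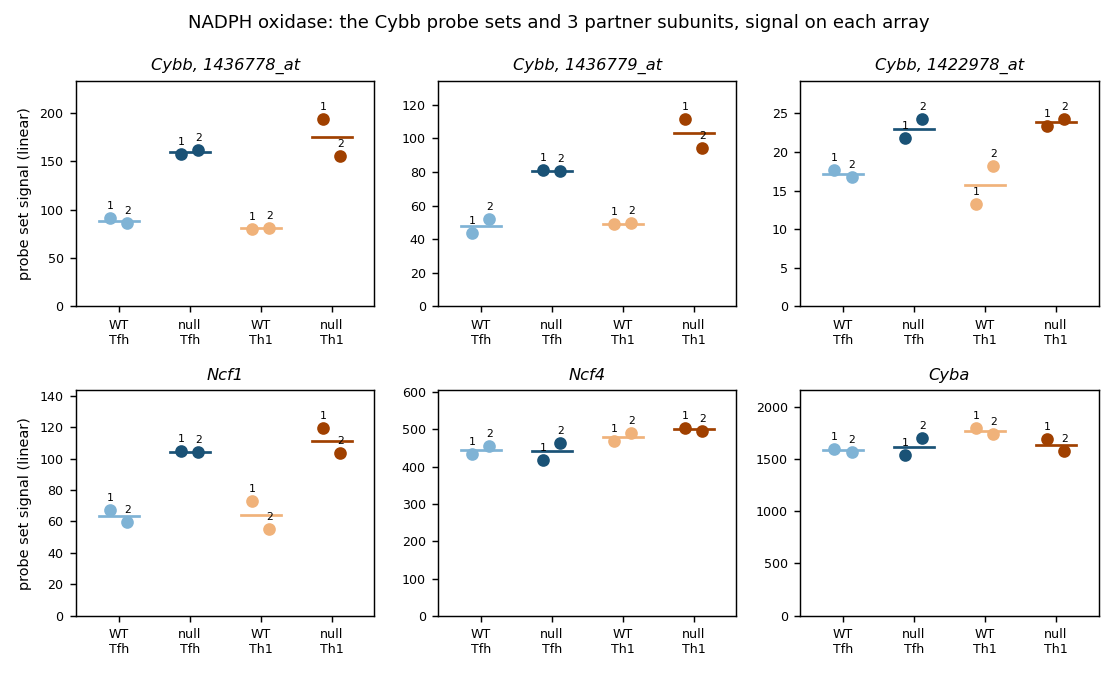
Linear probe set signal (y axis, from 0) on each array for the 3 Cybb probe sets and for Ncf1, Ncf4 and Cyba, by group; points are single arrays numbered by replicate and lines are group means (2 arrays each). The Rictor-null points lie above the WT points for each Cybb probe set and for Ncf1, with the brightest Cybb probe set at 156 to 194 against 80.6 to 91.2.

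Cybb is abundant in phagocytes and also in B cells, so markers of these and of plasma cells are given beside it. Of 13 macrophage and monocyte markers, 8 were below the array median on all 8 arrays, Spic and the C1q genes among them. Their summed signal was 380 to 397 on Rictor-null and 396 to 408 on WT Tfh arrays, and 342 to 351 on Rictor-null and 337 to 356 on WT Th1 arrays, so it did not rise with Cybb. The brightest 2 of that list moved in opposite directions in Tfh cells, Fcgr1 falling by 0.38 (limma adjusted p = 0.0178) and Cd68 rising by 0.38 (adjusted p = 0.0101), and neither passed in Th1 cells (0.00 and 0.09). Of 7 B cell markers with a probe set, 5 were below the median on all arrays, and the sums were 455 to 515 against 495 to 502 in Tfh cells and 302 to 351 against 377 to 414 in Th1 cells. The brightest, Cd22, fell by 0.57 in Rictor-null Th1 cells (limma adjusted p = 0.00166), while Cd79b differed by 0.28 and 0.38 without passing in either lineage. Over both lineages together Cd79b passed as higher (0.33, limma adjusted p = 0.0148), Cd68 as higher (0.24, adjusted p = 0.0142) and Cd22 as lower (-0.34, adjusted p = 0.00296). The 4 plasma cell markers summed to 1400 to 1503 against 1298 to 1335 in Tfh cells and 1412 to 1502 against 1219 to 1342 in Th1 cells, higher in Rictor-null cells without overlap. Most of that sum was Xbp1, a factor of the unfolded protein response that T cells also express. Xbp1 passed as higher over both lineages (0.18, limma adjusted p = 0.0302) and in neither alone. Sdc1, the second brightest of that list, went the other way. Its Rictor-null arrays lay below the WT arrays of each lineage. It differed by -0.11 in Tfh and -0.15 in Th1 cells, and did not pass in either. Jchain and Tnfrsf17 were below the median on all arrays. The 7 neutrophil markers with a probe set summed to 160 to 161 against 170 to 177 in Tfh cells and 147 to 151 against 153 to 162 in Th1 cells, with 6 of them below the median on all arrays. The part of such cells in the Cybb values was not tested further.

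Peroxiredoxins reduce peroxides, those of the cytosol and mitochondria largely through thioredoxin, with electrons that thioredoxin reductase takes from NADPH. Prdx4, the peroxiredoxin of the endoplasmic reticulum, had signals of 153 and 159 on the WT Tfh arrays, 221 and 234 on the Rictor-null Tfh arrays, 210.4 and 184 on the WT Th1 arrays and 253 and 257 on the Rictor-null Th1 arrays. Within each lineage the genotypes did not overlap. It rose by 0.47 ± 0.066 in Tfh cells (1.38-fold, limma adjusted p = 0.00105) and by 0.33 ± 0.066 in Th1 cells (1.25-fold, adjusted p = 0.00964). This result rests on 1 probe set, the brightest. The 3 other Prdx4 probe sets did not pass in either lineage, with differences of 0.00, 0.02 and 0.11 in Tfh cells and 0.63, 0.12 and 0.05 in Th1 cells. With the mean of its probe sets that passed the brightness filter, which leaves out the dimmest, the Tfh difference was 0.16 (limma adjusted p = 0.201). The Th1 call ended without either Rictor-null Th1 array (limma adjusted p = 0.0602 and 0.0692) or without WT Th1 replicate 2 (0.0778).

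Prdx2, the abundant cytosolic peroxiredoxin, read 805 and 785 on WT Tfh arrays, 944 and 945 on Rictor-null Tfh arrays, 778 and 779 on WT Th1 arrays and 890.3 and 849.6 on Rictor-null Th1 arrays. All Rictor-null arrays were above all WT arrays. It rose by 0.24 ± 0.055 in Tfh cells (1.18-fold, limma adjusted p = 0.0177), and the difference of 0.15 ± 0.055 in Th1 cells did not pass (adjusted p = 0.108). Over both lineages together it was 0.20 ± 0.039 (limma adjusted p = 0.00570), a call that held with each array left out. The Tfh call ended after median centring (adjusted p = 0.0702), without WT Tfh replicate 1 (0.102), WT Tfh replicate 2 (0.157) or Rictor-null Tfh replicate 2 (0.0544), all by limma. Its second probe set gave 0.18 and 0.17, short of the threshold.

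The brightest probe sets of the other tested genes of this group, Txnrd1 (thioredoxin reductase of the cytosol), Txn1 (thioredoxin) and Prdx3 (the mitochondrial peroxiredoxin), did not pass in either lineage, with differences between -0.01 and 0.06. A second, dimmer Txn1 probe set went the other way in Th1 cells, at -0.20, and passed as lower there in the fit of all probe sets (limma adjusted p = 0.0236), while the brightest gave 0.06; in Tfh cells it gave 0.11 (adjusted p = 0.115). The Txn1 probe sets therefore disagreed in Th1 cells. Of 23 tested genes of a wider list of the thioredoxin system and selenoprotein synthesis, 1 was higher in Rictor-null Tfh cells (Selenok, a selenoprotein of the endoplasmic reticulum, 0.27) and 1 was lower in Th1 cells (Msra, methionine sulfoxide reductase A, -0.24). That is 4.35% in each lineage, where 13.6% of all genes passed in Tfh and 10.5% in Th1 cells. The Selenok call ended under median centring and without either WT Tfh array. The Msra call ended with no filter, with a pseudocount of 100, with the replicate block and without 6 of the 8 arrays in turn.

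Among the glutathione genes, Slc3a2 stood higher in Rictor-null cells while the enzymes of glutathione synthesis did not pass. Slc3a2 encodes the heavy chain CD98, which pairs with SLC7A11 and also with large neutral amino acid transporters. Its only probe set read 957 and 945 on WT Tfh arrays, 1172 and 1284 on Rictor-null Tfh arrays, 981 and 911 on WT Th1 arrays and 1141 and 1091 on Rictor-null Th1 arrays. All 4 Rictor-null arrays were above all 4 WT arrays. The difference was 0.36 ± 0.065 in Tfh cells (1.28-fold, limma adjusted p = 0.00534) and 0.23 ± 0.065 in Th1 cells (1.17-fold, adjusted p = 0.0466), and 0.29 ± 0.046 over both (adjusted p = 0.00125). The Tfh call ended without WT Tfh replicate 1 (limma adjusted p = 0.0514) or replicate 2 (0.0596). The Th1 call lay close to the threshold and ended without any of 6 arrays (all but the Rictor-null Tfh arrays) and with the replicate block. It also ended under quantile normalization (limma adjusted p = 0.168), under median centring (0.0502) and with no filter (0.0657). A pseudocount of 8 (limma adjusted p = 0.0729) and the fit of all probe sets (0.0884) ended it too. Slc7a11, the cystine-carrying partner, was below the filter, at 9.76 to 14.1 on all arrays against array medians of 35.69 to 37.74.

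Gpx4, the enzyme that reduces phospholipid peroxides, read 982 and 993 on WT Tfh arrays, 1026 and 1137 on Rictor-null Tfh arrays, 1153 and 1074 on WT Th1 arrays and 1145 and 1079 on Rictor-null Th1 arrays. The difference was 0.13 ± 0.067 in Tfh cells, with a 95% interval of -0.02 to 0.27, and in Th1 cells the interval was -0.15 to 0.15. Neither passed (limma adjusted p = 0.238 and 0.995), and the second Gpx4 probe set gave 0.18 and 0.01. Gclc, the catalytic subunit of glutamate-cysteine ligase, differed by -0.12 in Tfh cells (signals of 523 and 482 in WT, 456 and 465 in Rictor-null), and the modifier subunit Gclm by 0.17 in Th1 cells, which passed only without Rictor-null Th1 replicate 2. Gss (glutathione synthetase) differed by 0.17 in Tfh cells (limma adjusted p = 0.105) and Gsr (glutathione reductase) by 0.06 and -0.06.

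Gpx1, the cytosolic peroxidase for hydrogen peroxide, passed as lower in Rictor-null Th1 cells; Keap1 did so under some other settings of filter and pseudocount, as given with it. It read 1362 and 1375 in WT Th1 against 1190.3 and 1203 on Rictor-null Th1 arrays, groups that did not overlap, and 1315 and 1285 against 1253 and 1249 in Tfh cells. It fell by 0.19 ± 0.053 on the log2 scale in Th1 cells (1.14-fold, limma adjusted p = 0.0469), and differed by -0.05 ± 0.053 in Tfh cells (adjusted p = 0.520). The Th1 call lay at the threshold, and ended with a pseudocount of 8 (limma adjusted p = 0.0798). It also ended with the replicate block, with only the arrays compared and without both arrays that stood apart. Leaving out any of the 6 arrays other than the Rictor-null Tfh arrays ended it too. Over both lineages the difference of -0.12 (limma adjusted p = 0.0492) was lost whichever array was left out.

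Of 20 tested genes of a wider list of glutathione and cysteine supply, 4 were higher and 0 lower in each lineage. That is 20%, where 13.6% of all genes passed in Tfh and 10.5% in Th1 cells. Over both lineages together 4 were higher and 2 lower, where 17.1% of all genes passed. In Th1 cells 11 of the 20 differences were below 0. Mgst2, a membrane-bound glutathione transferase, rose by 0.52 and 0.25 in Tfh and Th1 cells, Got1, the cytosolic aspartate aminotransferase, by 0.47 and 0.31, and Abcc1, an exporter of glutathione conjugates, by 0.25 and 0.39. Ggct, which cleaves gamma-glutamyl amino acids, rose in Tfh cells (0.33), and Gpx7, a peroxidase of the endoplasmic reticulum, in Th1 cells (0.39). Of these, Mgst2 and Got1 in Tfh cells and Abcc1 in Th1 cells held with each array left out. The Mgst2 call in Th1 cells was kept in 4 of 11 settings. It ended under both other scalings, with no filter and with a filter of above the median on all 8 arrays. It also ended with a pseudocount of 8, with the variance trend and with the replicate block. Leaving out any of the 6 arrays other than the Rictor-null Tfh arrays ended it too. The Abcc1 call in Tfh cells ended under both other scalings and without either WT Tfh array or Rictor-null Tfh replicate 2. The Got1 call in Th1 cells ended with no filter and without any of the 4 Th1 arrays, the Ggct call under both other scalings, with the mean of its probe sets (0.097, limma adjusted p = 0.286) and without either WT Tfh array, and the Gpx7 call without Rictor-null Th1 replicate 2. Gpx7 was dim, at 30.9 and 22.1 on WT Th1 arrays and 42.2 and 46.9 on Rictor-null Th1 arrays. Only the Rictor-null Th1 arrays had it above their median, so it met the filter through the group where it was higher. Its place in the Th1 count of this list is therefore no support for that count.

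**Figure D3:**
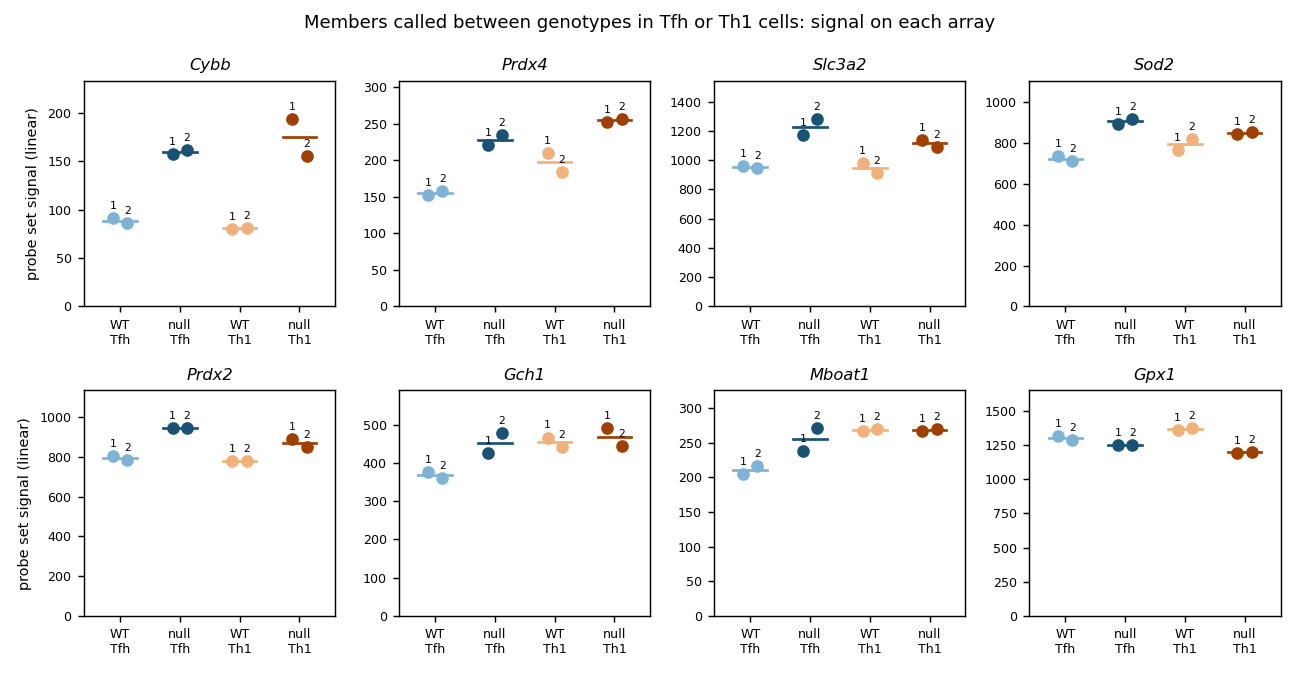
Linear probe set signal (y axis, from 0) on each array of the 8 members that passed between genotypes in Tfh or Th1 cells, by group; points are single arrays numbered by replicate, and lines are group means (2 arrays each). For Slc3a2 the WT arrays span 911 to 981 and the Rictor-null arrays 1091 to 1284, while for Gpx1 the Rictor-null Th1 arrays (1190.3 and 1203) are the lowest.

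Of the suppressors that act beside GPX4, 3 were tested, and 2 passed as higher in Rictor-null Tfh cells by small amounts, where 11.3% of all genes did. Both calls were lost under quantile normalization and under median centring. Gch1, the first enzyme of tetrahydrobiopterin synthesis, read 376 and 361 on WT Tfh arrays, 427 and 479 on Rictor-null Tfh arrays, 467 and 442 on WT Th1 arrays and 492 and 445 on Rictor-null Th1 arrays. WT Tfh cells were the lowest group. The difference was 0.27 ± 0.072 in Tfh cells (1.21-fold, limma adjusted p = 0.0302), compared with 0.04 in Th1 cells (adjusted p = 0.782). Its second, dimmer probe set gave 0.20 in Tfh and 0.25 in Th1 cells, neither past the threshold (limma adjusted p = 0.150 and 0.105 over all probe sets), so the Gch1 probe sets differed on the Th1 value. Mboat1, a phospholipid-remodelling acyltransferase, read 204 and 217 on WT Tfh arrays, 238 and 272 on Rictor-null Tfh arrays, 267 and 269.6 on WT Th1 arrays and 268 and 269 on Rictor-null Th1 arrays. It was 0.24 ± 0.066 higher in Rictor-null Tfh cells (1.18-fold, limma adjusted p = 0.0373), and in Th1 cells the 95% interval was -0.15 to 0.15. A second Mboat1 probe set gave 0.22 in Tfh cells (limma adjusted p = 0.0497 over all probe sets, a fit in which the brightest gave 0.0727 and that of Gch1 0.0775). With the mean of each gene's probe sets, Gch1 and Mboat1 passed as higher over both lineages together.

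Neither gene's genotype effect was shown to differ between lineages (limma adjusted p = 0.245 for Gch1 and 0.208 for Mboat1). Both Tfh calls were fragile. That of Gch1 ended under quantile normalization (limma adjusted p = 0.0896), median centring (0.0722), with no filter, with the replicate block and with only the arrays compared. It also ended without either WT Tfh array, without Rictor-null Tfh replicate 2 and without both arrays that stood apart. That of Mboat1 ended under quantile normalization (limma adjusted p = 0.144), median centring (0.101), with no filter (0.0533) and with only the arrays compared. It also ended without both arrays that stood apart and with any array left out except Rictor-null Tfh replicate 1. Dhodh, which reduces ubiquinone in the inner mitochondrial membrane, differed by -0.03 and -0.01. Aifm2, which encodes FSP1, the plasma membrane ubiquinone reductase, was below the filter at 24.6 to 31.1.

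In a wider list of quinone, tetrahydrobiopterin and other suppressors, 3 of 16 tested genes were higher in Rictor-null Tfh cells, and in Th1 cells 2 were higher and 1 lower. That is 18.8% in each lineage, where 13.6% of all genes passed in Tfh and 10.5% in Th1 cells. Cdkn1a, the cell cycle inhibitor p21, rose by 0.64 in Tfh and 0.69 in Th1 cells (limma adjusted p = 0.000314 and 0.000156), and these calls held with each array left out. Coq8a, a kinase-like protein of coenzyme Q synthesis, rose by 0.35 in Tfh cells, a call that ended without WT Tfh replicate 2, and Chmp6, of the membrane-repairing ESCRT-III complex, by 0.28, a call that ended under both other scalings and without either WT Tfh array or Rictor-null Tfh replicate 2. In Th1 cells Pts, the next enzyme of tetrahydrobiopterin synthesis after Gch1, rose by 0.30 and Qdpr, which regenerates tetrahydrobiopterin, fell by 0.29 on the log2 scale. The Pts call ended under both other scalings, with no filter and without either Rictor-null Th1 array or WT Th1 replicate 1, and the Qdpr call without Rictor-null Th1 replicate 1 or either WT Th1 array.

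No iron-handling member passed between genotypes in either lineage, of 5 tested; by unadjusted p under 0.05 the only gene was Steap3 in Tfh cells (limma). Tfrc, the transferrin receptor that brings iron in, read 364 and 375 on WT Tfh arrays, 376 and 376 on Rictor-null Tfh arrays, 391 and 407 on WT Th1 arrays and 433 and 429 on Rictor-null Th1 arrays, and differed by 0.02 ± 0.055 and 0.10 ± 0.055. Fth1, the ferritin heavy chain that stores iron, read 4573 and 4399, 4695 and 4040.1, 4273 and 4471, and 4763 and 4542 in the same order of groups, and its 95% intervals were -0.21 to 0.12 in Tfh and -0.07 to 0.25 in Th1 cells. Its second probe set gave 0.26 and -0.14, neither past the threshold.

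Ncoa4, the receptor that carries ferritin to autophagy, differed by -0.12 and 0.04, and Ireb2, which encodes an iron regulatory protein, by 0.07 and 0.13. Steap3, an endosomal ferrireductase, read 81.3 and 73.9 in WT against 66.1 and 59.5 on Rictor-null Tfh arrays, which did not overlap. Its difference of -0.21 ± 0.069 did not pass as deposited (limma adjusted p = 0.0713). Steap3 passed as lower under quantile normalization and median centring, and without Rictor-null Tfh replicate 1. It also passed in the fit of probe set means, which for Steap3 held the same single probe set and so adds no other. The other Steap3 probe sets lay below the array median on all arrays, with differences of -0.036 and -0.0066 in Tfh cells. Slc40a1, the iron exporter ferroportin, lay at 14.8 to 17.9 and Hmox1, heme oxygenase 1, at 25.3 to 41.4, both below the filter. In a wider list of iron uptake, storage and iron-sulphur genes, 1 of 17 tested passed in Tfh cells, the heme transporter Slc48a1 (0.28, a call that ended under quantile normalization and without either WT Tfh array or Rictor-null Tfh replicate 2), and 0 passed in Th1 cells (limma; 2 had an unadjusted p under 0.05). Among all genes 13.6% passed in Tfh and 10.5% in Th1 cells.

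**Figure D4:**
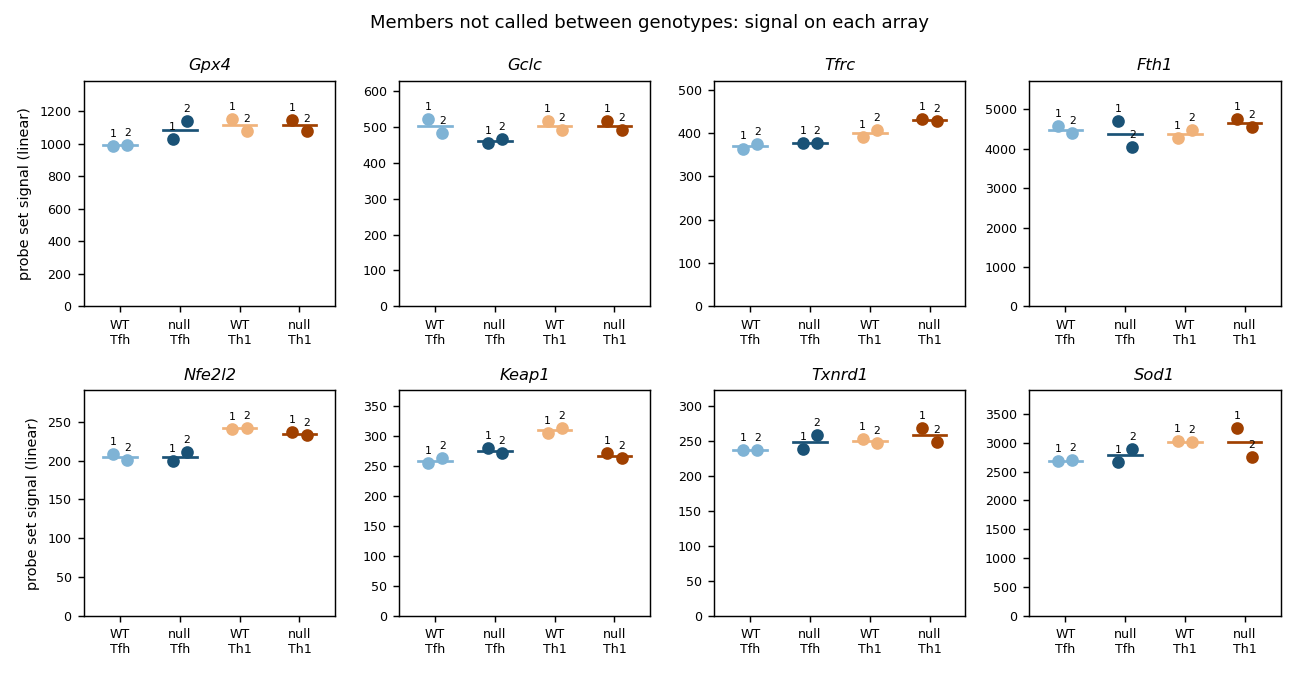
Linear probe set signal (y axis, from 0) on each array of 8 members that did not pass between genotypes as deposited, by group; points are single arrays numbered by replicate and lines are group means (2 arrays each). Gpx4 spans 982 to 1153 over the 8 arrays, Tfrc 364 to 433, and Nfe2l2 is lower in the Tfh arrays (199 to 211) than in the Th1 arrays (232 to 242).

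Acsl4, which loads polyunsaturated fatty acids onto coenzyme A and so supplies oxidizable phospholipids, differed widely between the replicates of Rictor-null Tfh and of WT Th1 cells. Its brightest probe set read 310.2 and 285 on WT Tfh arrays, 319.7 and 184 on Rictor-null Tfh arrays, 231 and 323 on WT Th1 arrays and 325 and 374 on Rictor-null Th1 arrays. The lowest 2 values were those of the arrays that stood apart on the third principal component, Rictor-null Tfh replicate 2 and the first WT Th1 replicate. The differences were -0.26 ± 0.192 in Tfh cells (limma adjusted p = 0.390), compared with 0.32 ± 0.192 in Th1 cells (adjusted p = 0.346). Without Rictor-null Tfh replicate 1 the Tfh difference was -0.61 and passed as lower. That fit leaves the array that stood apart as the whole group, so a single array decides that call. On Rictor-null Tfh replicate 1 the signal (319.7) lay above both WT Tfh arrays. The second brightest Acsl4 probe set read 47.5 and 62.4 in Rictor-null Tfh against 44.4 and 44.3 on WT Tfh arrays, and did not show the low value on replicate 2.

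Catalase (Cat), the peroxisomal enzyme that breaks down hydrogen peroxide, had the same pattern. It read 459.6 and 423 on WT Tfh arrays, 441 and 253 on Rictor-null Tfh arrays, 271 and 372 on WT Th1 arrays and 405 and 443 on Rictor-null Th1 arrays, and the lowest arrays were again those 2. The differences were -0.37 ± 0.192 and 0.38 ± 0.192, and the effect of genotype in Tfh cells minus that in Th1 cells was -0.75 ± 0.272, none of which passed (limma adjusted p = 0.226, 0.249 and 0.188). Without Rictor-null Tfh replicate 1, which leaves the array that stood apart as the whole group, the Tfh difference was -0.73. On Rictor-null Tfh replicate 1 the signal (441) lay between those of the WT Tfh arrays. Without either Rictor-null Tfh array Cat passed as higher in Th1 cells. The second Cat probe set had its lowest value on the same Rictor-null Tfh array (213, against 240.3 to 317 on the other arrays).

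**Figure D5:**
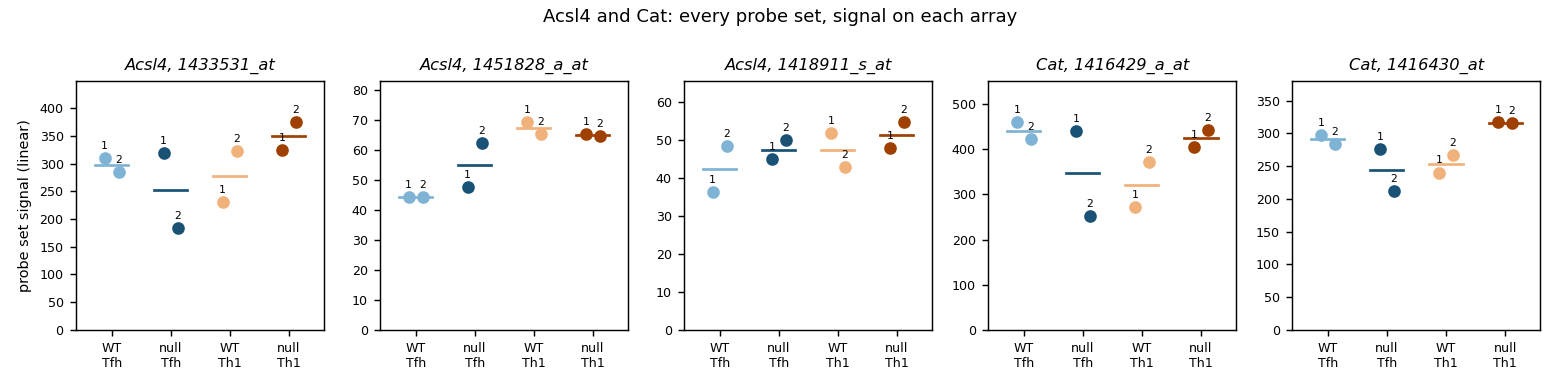
Linear probe set signal (y axis, from 0) on each array for every Acsl4 and Cat probe set, by group; points are single arrays numbered by replicate, and lines are group means (2 arrays each). In the brightest probe sets the lowest points are Rictor-null Tfh replicate 2 (184 for Acsl4, 253 for Cat) and WT Th1 replicate 1 (231 and 271).

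The other drivers of lipid peroxidation did not pass. These were Lpcat3, which puts polyunsaturated chains into phospholipids (-0.01 in both lineages), Alox5, arachidonate 5-lipoxygenase (-0.09 and -0.08), Sat1, the rate-limiting enzyme of polyamine catabolism (-0.07 and -0.01), and the channels of the outer mitochondrial membrane Vdac2 (0.05 and -0.06) and Vdac3 (0.08 and 0.09). Alox15 lay below the filter at 12.2 to 19.0. Of 17 tested membrane lipid enzymes and related genes from a wider list, 4 were higher and 2 lower in Rictor-null Tfh cells, and 2 were higher and 1 lower in Th1 cells. That is 35.3% and 17.6%, where 13.6% and 10.5% of all genes passed. Scd2, a desaturase that makes monounsaturated fatty acids, rose by 0.60 (limma adjusted p = 5.75e-05) and 0.67 (adjusted p = 2.15e-05), and Dpp4, a surface peptidase, by 0.26 and 0.43. Fads1, a desaturase of polyunsaturated fatty acids, fell by 0.24 and 0.20 on the log2 scale. The Scd2 calls and the Dpp4 call in Th1 cells held with each array left out. With the mean of its probe sets Fads1 was at -0.038 in Tfh and -0.067 in Th1 cells (limma adjusted p = 0.710 and 0.546), so its calls rest on the brightest probe set. The Dpp4 call in Tfh cells ended under both other scalings and with the mean of its probe sets (0.14, limma adjusted p = 0.0880). The Dpp4 and Fads1 calls in Tfh cells ended without either WT Tfh array. The Fads1 call in Th1 cells ended under quantile normalization, with a pseudocount of 100, with the replicate block and with only the arrays compared. It also ended without any of the 6 arrays other than the Rictor-null Tfh arrays.

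Of the superoxide dismutases, Sod2, the mitochondrial enzyme, was higher in Rictor-null Tfh cells. It read 735 and 714 on WT Tfh arrays, 892 and 920.4 on Rictor-null Tfh arrays, 767 and 821 on WT Th1 arrays and 846 and 853 on Rictor-null Th1 arrays. All Rictor-null arrays lay above all WT arrays. The difference was 0.31 ± 0.058 in Tfh cells (1.24-fold, limma adjusted p = 0.00601), compared with 0.09 ± 0.058 in Th1 cells (adjusted p = 0.351), and over both lineages 0.20 ± 0.041 (adjusted p = 0.00644), which held with each array left out. The effects were not shown to differ between lineages (0.22, limma adjusted p = 0.201). The Tfh call ended without WT Tfh replicate 2 (limma adjusted p = 0.0792). Of the other probe sets, the second brightest gave 0.30 and 0.17, the third gave 0.14 and 0.21, and the dimmest, below the array median on all arrays, read 27.2 and 31.9 in Rictor-null against 29.4 and 30.0 on WT Tfh arrays. Sod1, the cytosolic dismutase, differed by 0.05 and -0.01 in its brightest probe set. Its other probe sets above the array medians disagreed in Tfh cells, at -0.11, -0.21 and 0.18. In Th1 cells they gave 0.10, 0.02 and -0.06, and none passed between genotypes. Between WT lineages the last 2 of these gave 0.27 and -0.27, and only the last passed (limma adjusted p = 0.024 over all probe sets).

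Nfe2l2, which encodes NRF2, read 209 and 200.3 on WT Tfh arrays, 199 and 211 on Rictor-null Tfh arrays, 241 and 242 on WT Th1 arrays and 237 and 232 on Rictor-null Th1 arrays. Genotypes overlapped in Tfh cells, and the 95% intervals of the genotype difference were -0.12 to 0.13 in Tfh and -0.16 to 0.09 in Th1 cells. Keap1, the adaptor that marks NRF2 for degradation, read 254 and 262, 279.8 and 271, 305 and 313, and 271 and 263 in the same order, so WT Th1 cells were the highest group. In Th1 cells it was -0.19 ± 0.055, just short of the threshold (limma adjusted p = 0.0534), and passed as lower under quantile normalization (adjusted p = 0.0186), median centring (0.0310), with no brightness filter (0.0341), with a pseudocount of 100 (0.0298), in the fit of all probe sets (0.0391) and without either Rictor-null Tfh array. Its genotype effect in Tfh minus Th1 cells was 0.27 ± 0.078, which did not pass (limma adjusted p = 0.130). Nqo1, a classical NRF2 target, was below the filter at 11.9 to 16.7.

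In a wider list of NRF2 regulators and targets, 4 of 20 tested genes were higher in Rictor-null Tfh cells and 0 lower, and in Th1 cells 2 were higher and 1 lower. In Tfh cells Maff, a small MAF partner of NRF2, rose by 0.29, Sqstm1, the autophagy adaptor p62 that binds KEAP1, by 0.44, and Osgin1 by 0.21. In Th1 cells Cul3, the ubiquitin ligase scaffold that works with KEAP1, rose by 0.29, Abcc4, an efflux pump, by 0.30, and Tkt, transketolase, fell by 0.26 on the log2 scale. Each of these calls ended without at least 1 array: those of Maff and Sqstm1 without either WT Tfh array (that of Sqstm1 also without Rictor-null Tfh replicate 2), that of Osgin1 without any array except Rictor-null Tfh replicate 1, those of Cul3 and Abcc4 without the first replicate of either Th1 group (that of Abcc4 also without Rictor-null Th1 replicate 2), and that of Tkt without any of the 6 arrays other than the Rictor-null Tfh arrays. The Osgin1 call also ended under both other scalings, with a pseudocount of 100, with the replicate block and with only the arrays compared. The Tkt call also ended with no filter, a pseudocount of 8 and the mean of its probe sets (-0.16, limma adjusted p = 0.101). Over all the wider lists, 119 genes were tested, of which 18 were higher and 2 lower in Tfh cells (16.8%) and 11 higher and 4 lower in Th1 cells (12.6%), against 13.6% and 10.5% of all genes. The Th1 count includes Gpx7, which met the filter only through its Rictor-null Th1 arrays.

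Between lineages in WT cells, 5 members were lower in Tfh than in Th1 cells and 0 higher, where 14.7% of all genes passed, 11.6% as lower and 3.09% as higher. They were Prdx4 (-0.29, limma adjusted p = 0.0210), Mboat1 (-0.31 ± 0.066, adjusted p = 0.0156), Gch1 (-0.28 ± 0.072, adjusted p = 0.0295), Keap1 (-0.23 ± 0.055, adjusted p = 0.0232) and Nfe2l2 (-0.21 ± 0.056, adjusted p = 0.0346). The WT arrays of the lineages did not overlap for 22 members, as for 67.7% of all genes. These calls share the WT Tfh arrays with the genotype comparison in Tfh cells. Of all genes called, 21.0% were higher in WT Tfh cells as deposited, 40.2% after quantile normalization and 70.7% after median centring, and Mboat1 was the only one of the 5 members still lower under both. Without either WT Tfh array, or without WT Th1 replicate 1, 0 of the 5 were called (limma; 5, 7 and 6 members had an unadjusted p under 0.05), and without WT Th1 replicate 2 only Prdx4 was. Prdx4 was also reversed in 2 of its other probe sets (0.16 and 0.17). In the fit of all probe sets, the second probe set of Mboat1 passed as lower (-0.26). Those of Gch1 (-0.27), Keap1 (-0.13) and Nfe2l2 (-0.08) did not pass. The second brightest probe sets of Dhodh (-0.25) and Acsl4 (-0.38) passed as lower, while their brightest did not. With the mean of each gene's probe sets, Dhodh and Tfrc were called lower, and Nfe2l2 and Prdx4 were not called.

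In Rictor-null cells 0 members passed between lineages (limma; 4 had an unadjusted p under 0.05), where 9.72% of all genes did, with 33.7% of these higher in Tfh cells as deposited, 44.5% after quantile normalization and 54.0% after median centring. Without Rictor-null Tfh replicate 1, Acsl4, Cat and Ncoa4 passed as lower in Tfh cells. No member passed the test of whether the genotype effect differed between lineages (limma; 5 had an unadjusted p under 0.05, and 1.21% of all genes passed), so a member called in Tfh cells and not in Th1 cells was not shown to respond differently. Without Rictor-null Tfh replicate 1, Mboat1 passed as higher and Acsl4 and Cat as lower in that test.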

How the data were processed

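Per the labels' protocols, total RNA was extracted with Trizol and biotin-labelled cRNA was made from 100 ng. The authors deposited the intensity of 45037 probe sets, which is linear; per the submitters' processing notes MAS5 and RMA were used, with version, role and scaling not given in the sources used here. Symbols came from the platform annotation: 34945 probe sets had 1 symbol, 932 several and 9160 none.

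Signals were taken as log2(signal + 32), so folds of dim genes are understated. A probe set passed if 2 or more of the 8 arrays had it above their own median, and the brightest per gene by mean log2 signal was used. All 8 arrays were fitted with 1 mean per group in limma 3.58.1 (R 4.3.3; residual degrees of freedom 4, prior 6.7), with Benjamini-Hochberg adjustment over 11217 genes and a threshold of 0.05; other probe sets were fitted in a table of all probe sets. For 2 against 2 arrays the smallest two-sided exact permutation p is 0.333, so none was run. The number of arrays limits the precision.

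Members and wider lists were chosen with earlier results of these data known. Values on every array are given for members called in a contrast and for Gpx4, Slc7a11, Tfrc, Nfe2l2, Fth1 and Acsl4; of each wider list up to 3 called genes with the smallest p per genotype comparison are named, and of marker lists the brightest 2. Other genes named were chosen after their values were seen. Alternatives covered scaling, filter, pseudocount, probe set choice, variance trend, the replicate block, the arrays fitted and each array left out. Replicate numbers were checked as a pairing and did not pair the samples. Figures were drawn with matplotlib 3.10.9.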

Additional observations from a re-analysis of the deposited data

How the results depend on the processing

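Cybb in each lineage, and Cybb, Prdx2, Prdx4, Slc3a2 and Sod2 over both lineages, kept their direction and passed under each other scaling, filter, pseudocount and model and with each array left out; single other probe sets did not all pass. With an array left out, its group is 1 array, assumed to vary like the others. The number of members called in Tfh cells (7) then ranged from 2 to 12, in Th1 cells (4) from 1 to 6, over both lineages (6) from 5 to 8, between lineages in WT (5) from 0 to 6 and in Rictor-null cells (0) from 0 to 3, and for the interaction (0) from 0 to 3. A pseudocount of 8 gave 2 in Th1 cells. Between WT lineages quantile normalization gave 1, median centring 2, only the 4 arrays compared 8, and leaving out both arrays that stood apart 3. Between Rictor-null lineages no filter gave 1, a pseudocount of 100 gave 1, and the mean of each gene's probe sets 4. The cause of these shifts was not tested. Reversed values were Prdx4 between WT lineages (0.015 with the mean of its probe sets, 0.16 and 0.17 in 2 single probe sets) and Sod2 in 1 dim probe set (-0.0037 in Tfh cells, -0.020 over both lineages).

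With the replicate block, the count of members called was 6 in Tfh cells, 2 in Th1 cells, 5 over both lineages, 3 between WT lineages and 0 for the others. Same-numbered arrays had correlations of deviations between -0.514 and 0.276, so the numbers were not taken to pair the samples.

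Over all genes, 1528 were called in Tfh cells (947 with only the arrays compared, 456 to 2839 with an array left out), 1180 in Th1 cells (580 to 1775), 1916 over both (1031 to 2443), 1653 between WT lineages (1007 by quantile normalization, 1003 with the block, 2592 with only the arrays compared, 198 to 2678), 1090 between Rictor-null lineages (595 with only the arrays compared, 397 to 1660) and 136 for the interaction (65 with no filter, 27 to 1614). No scaling moved the median of all genes by over 0.1. Members below the filter have no measured direction.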
